A study of Mus musculus with 8 samples.

Results

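Toll-like receptors and the proteins that carry their signal were followed here in macrophages of the infarcted mouse heart, through 10 of the 53342 genes in the count tables: Tlr2, Tlr4, Tlr7, Tlr13, Cd14, Ly96, Myd88, Irak3, Irak4 and Unc93b1. They were chosen by name and were found through their Ensembl identifiers. All 8 libraries came from wild-type C57BL/6 mice, postnatal 8 weeks, killed 3 days after myocardial infarction. Macrophages sorted as Ly6Clo, with little of the surface antigen Ly6C, or as Ly6Chi, with much of it, were kept for 24 hours in culture medium with or without 100 ng/mL of interleukin 21 (IL-21), which activated helper T cells secrete. The 4 groups were Ly6Clo with IL-21, Ly6Clo without it, Ly6Chi with IL-21 and Ly6Chi without it, with 2 libraries in each, numbered 1 and 2 in the sample titles. Cells of mice that lack the IL-21 receptor, which the study also names, were not analysed here. The labels do not say whether libraries 1 and 2 came from separate mice or cultures, so p-values measure only the spread between these libraries, which may be technical.

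Toll-like receptors recognise molecules of microbes and of damaged cells. Those at the cell surface sense lipids and lipoproteins, and those in endosomes sense nucleic acids that the cell has taken up. Most of them recruit the adaptor MyD88, which assembles IRAK kinases and leads to NF-kappaB and to inflammatory genes. Dying heart muscle after an infarction releases ligands of several of these receptors, and infiltrating macrophages are among the cells that carry them.

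The libraries held 224329 to 483593 counts each, from a protocol that reads the 3' end of messenger RNA. The deepest were both Ly6Clo libraries numbered 2, with 444670 counts with IL-21 and 483593 without it. All the others held at most 287131, so among libraries numbered 2 depth went with the subset. A count of 3, taken here as the floor, was worth 6.58 to 14.9 CPM (a gene's counts scaled to library totals corrected by TMM, the scale of every level given). Among macrophage markers, Cd68, Lyz2, Csf1r, Adgre1, Fcgr1 and Mertk had counts in all 8 libraries, Cx3cr1 had 0 to 6 counts and Itgam had 0 in every library. Ly6c2, which encodes Ly6C, had 3 to 34 counts in the Ly6Clo and 75 to 134 in the Ly6Chi libraries, and the subsets did not overlap. All 8 Ly6Chi monocyte markers together summed to 239 to 548 CPM in Ly6Clo and 976 to 1596 CPM in Ly6Chi. Markers of neutrophils included Ly6g and Retnlg at 0 in all libraries and S100a9 at 0 to 1 count, while Mmp8 had 245 to 572. Of the other neutrophil markers, S100a8 had 11 to 42 counts and Csf3r 5 to 13. Among endothelial markers Kdr had 14 to 91 counts, while Cdh5, Pecam1 and Vwf had at most 2. The highest count of any fibroblast marker was 21, of any cardiomyocyte marker 9, of any platelet or erythroid marker 8, of any dendritic cell marker 7, of any T or NK cell marker 2 and of any B cell marker 1. In cells studied in bulk, fewer cells of a type and less RNA per cell cannot be told apart.

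All 10 genes were detected in all 8 libraries and passed the filter on low counts, with 4 to 136 counts in a library and 75 (Tlr2) to 675 (Unc93b1) over the 8. In no comparison did any of the 10 pass edgeR's quasi-likelihood test at an adjusted p under 0.05. A term for the library number in the fit let more genes pass, though none of the 10, as given in the last section. Without that term, as used here, the background was low too. IL-21 gave calls in 0.133% of the 5256 genes tested within Ly6Clo, 0.019% within Ly6Chi and 0.171% with the subsets averaged. Ly6Clo against Ly6Chi gave 0.19% averaged (0.0951% higher and 0.0951% lower), 0.019% with IL-21 and 0.0381% without. For the difference between the IL-21 effects of the subsets it was 0%. DESeq2 also called 0 of the 10 in each of these 7 comparisons. The shares above are edgeR's, and those of DESeq2 over all genes are not given here. At an unadjusted p under 0.05, edgeR had 1 of the 10 for IL-21 in Ly6Clo (3.52% of all genes), 0 in Ly6Chi (3.52%) and 1 averaged (5.33%). It had 1 for each of the 3 comparisons of Ly6Clo with Ly6Chi (5.27% of all genes with IL-21, 4.53% without and 7.78% averaged) and 0 for the difference of the IL-21 effects (1.75%). These genes are Myd88 and Irak3. A p that misses the threshold does not show that levels were equal, and the 95% intervals of the log2 fold changes are therefore given as well.

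**Figure D1:**
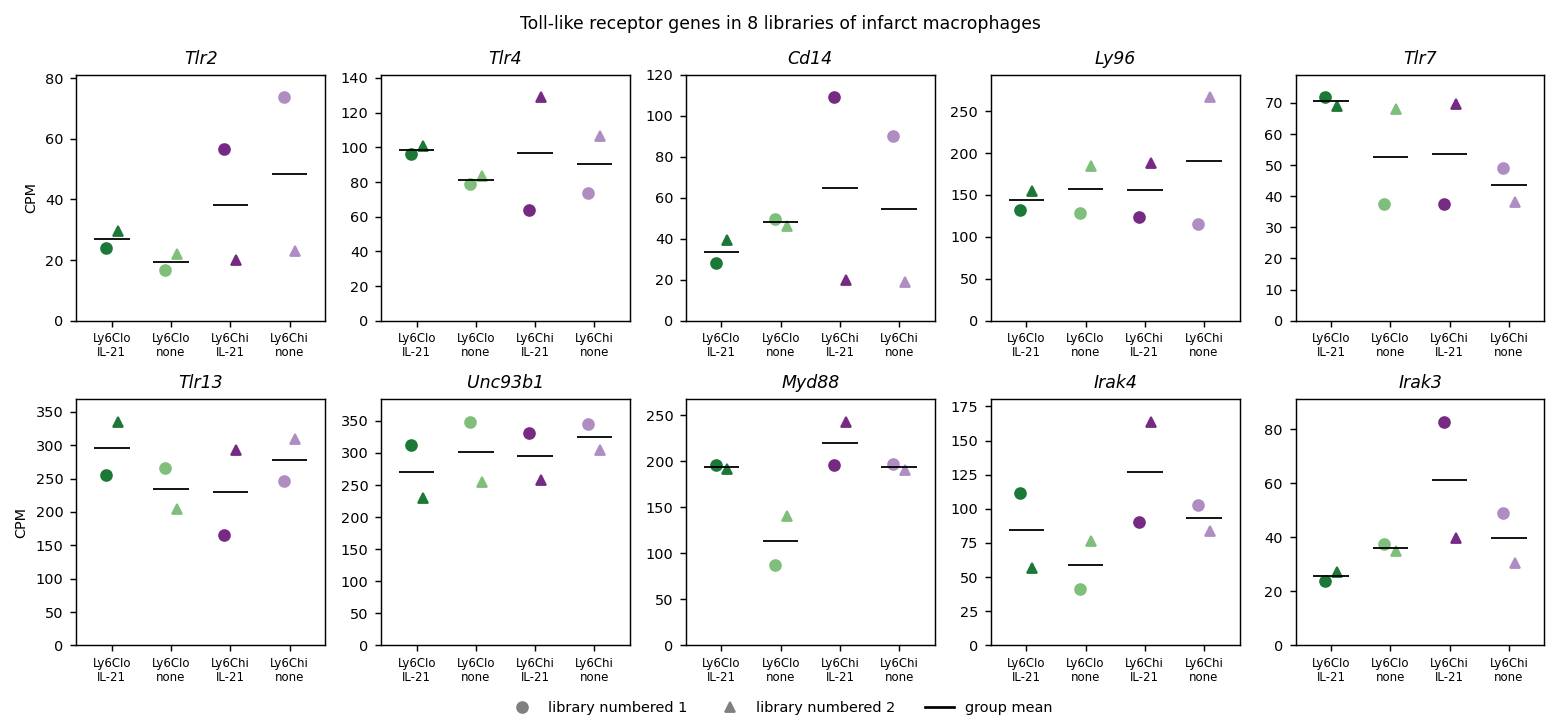
Level of each of the 10 genes in CPM (y axis, from 0) in the 4 groups (x axis), with circles for libraries numbered 1, triangles for those numbered 2 and a bar at the group mean. The groups overlap for most genes; Myd88 is low in both Ly6Clo libraries without IL-21, and Cd14 and Tlr2 are high in the Ly6Chi libraries numbered 1.

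At the cell surface, Tlr2 encodes a receptor of bacterial lipoproteins that works in pairs with TLR1 or TLR6 (ENSMUSG00000027995, GRCm38 chromosome 3, 83836272 to 83841767, minus strand). It had 24.0 and 29.6 CPM in Ly6Clo with IL-21 and 16.6 and 21.9 CPM in Ly6Clo without it. In Ly6Chi it had 56.5 and 19.9 CPM with IL-21 and 73.8 and 22.9 CPM without it, giving library 1 first as in all pairs below. Both Ly6Chi libraries numbered 1 stood above all the other libraries, and the stimulated and unstimulated ranges overlapped in Ly6Chi but not in Ly6Clo. The log2 fold change with IL-21 was 0.44 (SE 0.68, 95% interval -1.01 to 1.90) in Ly6Clo and -0.26 (SE 0.62, -1.57 to 1.06) in Ly6Chi.

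Tlr4, the receptor of bacterial lipopolysaccharide, lies on chromosome 4 at 66827584 to 66930284 (ENSMUSG00000039005, plus strand). Its level was 95.9 and 101 CPM in Ly6Clo with IL-21 and 78.9 and 83.4 CPM without it, against 64.0 and 129 CPM in Ly6Chi with IL-21 and 73.8 and 107 CPM without it. The 4 Ly6Clo libraries lay between the Ly6Chi libraries numbered 1 and those numbered 2. The log2 fold change with IL-21 was 0.28 (SE 0.35, -0.48 to 1.03) in Ly6Clo and 0.05 (SE 0.38, -0.75 to 0.86) in Ly6Chi.

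Cd14 and Ly96 encode the proteins that hand lipopolysaccharide to TLR4, CD14 by binding it at the membrane and MD-2, the product of Ly96, by holding it within the receptor complex. Cd14 (ENSMUSG00000051439) had 28.0 and 39.4 CPM in Ly6Clo with IL-21 and 49.8 and 46.1 CPM without it. In Ly6Chi it had 109 and 19.9 CPM with IL-21 and 90.2 and 19.1 CPM without it. The pair of Ly6Chi libraries numbered 1 was therefore the highest and the pair numbered 2 the lowest of the 8, at either stimulation. With IL-21 the log2 fold change was -0.45 (SE 0.78, -2.23 to 1.32) in Ly6Clo and 0.35 (SE 0.76, -1.37 to 2.06) in Ly6Chi, the widest intervals among the 10 genes.

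Ly96 (ENSMUSG00000025779, chromosome 1, 16688051 to 16709611, plus strand) had 132 and 155 CPM in Ly6Clo with IL-21 and 129 and 184 CPM without it. In Ly6Chi it had 124 and 189 CPM with IL-21 and 115 and 267 CPM without it. Library 2 was above library 1 in each of the 4 groups, by more than the stimulated and unstimulated means differed. With IL-21 the log2 fold change was -0.14 (SE 0.36, -0.92 to 0.63) in Ly6Clo and -0.31 (SE 0.37, -1.12 to 0.49) in Ly6Chi.

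Among the endosomal receptors, Tlr7 encodes a sensor of single-stranded RNA (ENSMUSG00000044583, chromosome X, 167304929 to 167330558, minus strand). Its level was 71.9 and 69.0 CPM in Ly6Clo with IL-21 and 37.4 and 68.0 CPM without it. In Ly6Chi it was 37.7 and 69.5 CPM with IL-21 and 49.2 and 38.1 CPM without it. Of the 4 groups, Ly6Clo with IL-21 had both libraries above all those of the unstimulated groups, while Ly6Clo without IL-21 and Ly6Chi with it each had 1 library close to that level and 1 well under it. With IL-21 the log2 fold change was 0.33 (SE 0.38, -0.48 to 1.15) in Ly6Clo and 0.26 (SE 0.46, -0.73 to 1.24) in Ly6Chi.

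Tlr13, a receptor of bacterial ribosomal RNA that mice have and humans lack, lies on the same chromosome at 106143204 to 106160493 (ENSMUSG00000033777, plus strand). It had 256 and 335 CPM in Ly6Clo with IL-21 and 266 and 204 CPM without it, against 166 and 293 CPM in Ly6Chi with IL-21 and 246 and 309 CPM without it. The ranges overlapped in both subsets. Its log2 fold change with IL-21 was 0.36 (SE 0.28, -0.25 to 0.96) in Ly6Clo and -0.30 (SE 0.30, -0.93 to 0.34) in Ly6Chi.

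Unc93b1 encodes the protein that escorts the nucleic-acid-sensing receptors, TLR7 and TLR13 among them, from the endoplasmic reticulum to endosomes (ENSMUSG00000036908, chromosome 19, 3935186 to 3949340, plus strand). It had 312 and 229 CPM in Ly6Clo with IL-21 and 349 and 255 CPM without it, against 331 and 258 CPM in Ly6Chi with IL-21 and 344 and 305 CPM without it. Its interval with IL-21 was the narrowest of the 10, with a log2 fold change of -0.15 (SE 0.25, -0.70 to 0.39) in Ly6Clo and -0.13 (SE 0.26, -0.69 to 0.42) in Ly6Chi. In each subset these intervals exclude a change of 2-fold in either direction.

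On the signalling side, Myd88 encodes the adaptor that all Toll-like receptors other than TLR3 use (ENSMUSG00000032508, chromosome 9, 119335934 to 119341411, minus strand). Its messenger was first found as an early response to interleukin 6 in a mouse myeloid leukaemia line, and interleukin 6 shares the transcription factor STAT3 with IL-21. Because STAT proteins bind the spaced palindrome TTCNNNGAA, the RefSeq promoter windows of the members, 250 bases before to 50 after the RefSeq start, were searched for those letters. The palindrome reads the same on both strands. Such windows were at hand for 5 members, 6 windows in all, with Tlr2, Tlr13, Irak4 and 2 windows of Irak3 among them, and 1 held a match, that of Myd88. It is printed 5' to 3' on the gene's strand (GRCm38.p6, chr9:119339969-119340268, minus strand), with the match in capitals. This window lies within the gene as placed above, downstream of its 5' end at 119341411. The RefSeq start of the window is therefore not the gene start given above.
Myd88 promoter: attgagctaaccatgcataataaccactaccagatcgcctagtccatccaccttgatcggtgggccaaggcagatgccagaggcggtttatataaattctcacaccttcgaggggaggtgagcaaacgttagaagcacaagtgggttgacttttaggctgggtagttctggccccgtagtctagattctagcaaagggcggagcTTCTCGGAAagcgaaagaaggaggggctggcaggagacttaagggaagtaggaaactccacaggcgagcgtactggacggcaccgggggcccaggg
The match TTCTCGGAA begins 46 bases before the RefSeq start. Of all 32851 mouse windows in the same table, 8.30% held a match, so it describes the letters of this window and shows no binding.

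The Myd88 level was 196 and 192 CPM in Ly6Clo with IL-21 and 87.2 and 140.5 CPM in Ly6Clo without it, and in Ly6Chi it was 196 and 243 CPM with IL-21 and 197 and 191 CPM without it. Ly6Clo without IL-21 was thus the group apart, with both of its libraries below the other 6. Within Ly6Clo the log2 fold change with IL-21 was 0.72 (SE 0.27, 0.14 to 1.31), with an unadjusted p of 0.0193 and an adjusted p of 0.9999 by edgeR's test. In Ly6Chi it was 0.17 (SE 0.27, -0.41 to 0.76), and averaged over the subsets it was 0.45 (SE 0.19, 0.03 to 0.86; edgeR adjusted p 0.865). Between libraries of the same number, the log2 ratio in Ly6Clo was 1.17 for number 1 and 0.45 for number 2, and in Ly6Chi it was -0.01 and 0.35. Summed levels of 3 marker lists of other cells were higher with IL-21 in the same Ly6Clo libraries without overlap, though no tested marker passed (edgeR adjusted p 0.9999). The 8 Ly6Chi monocyte markers summed to 548 and 359.8 CPM with IL-21 and 278 and 239 CPM without it. Of the 7 that were tested, 6 had a log2 fold change with IL-21 above 0 and 1 below it. Ly6c2, which encodes Ly6C, went against the sum. It was lower with IL-21 within each number, although its stimulated and unstimulated ranges overlapped. The 6 fibroblast markers summed to 112 and 135.5 CPM with IL-21 and 20.8 and 32.9 CPM without it. The 5 cardiomyocyte markers, none of them tested, summed to 75.9 and 17.3 CPM with IL-21 and 0 and 2.19 CPM without it. Their part in the Myd88 difference was not tested. Myd88 overlaps Slc22a14 on its own strand and Acaa1a on the other, so its counts are uncertain to the extent that reads of those genes were assigned to it.

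Irak4 encodes the kinase that MyD88 recruits first (ENSMUSG00000059883, chromosome 15, 94543643 to 94581815, plus strand). It had 112 and 56.7 CPM in Ly6Clo with IL-21 and 41.5 and 76.8 CPM without it, against 90.4 and 164 CPM in Ly6Chi with IL-21 and 102 and 83.9 CPM without it. The ranges overlapped in both subsets, and the IL-21 difference had opposite signs between the numbers. With IL-21 the log2 fold change was 0.38 (SE 0.43, -0.54 to 1.29) in Ly6Clo and 0.42 (SE 0.42, -0.47 to 1.31) in Ly6Chi. Irak4 overlaps Twf1, which lies on the opposite strand.

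Irak3 encodes IRAK-M, a member of the kinase family that restrains the pathway (ENSMUSG00000020227, chromosome 10, 120141648 to 120202130, minus strand). It had 24.0 and 27.1 CPM in Ly6Clo with IL-21 and 37.4 and 35.1 CPM without it. In Ly6Chi it had 82.8 and 39.7 CPM with IL-21 and 49.2 and 30.5 CPM without it. Within each number the stimulated library was lower in Ly6Clo, by a log2 ratio of -0.64 and -0.37, and higher in Ly6Chi, by 0.75 and 0.38. The fitted log2 fold change was -0.47 (SE 0.50, -1.53 to 0.59) in Ly6Clo and 0.67 (SE 0.47, -0.33 to 1.67) in Ly6Chi. Their difference, -1.14 (SE 0.68, -2.60 to 0.32), had the smallest p of the 10 genes in that comparison and did not pass (edgeR unadjusted p 0.116). These values rest on 6 to 22 counts in a library, and Irak3 overlaps Tmbim4 and Gm47009 on the opposite strand.

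Taking the 10 genes together, 6 had a log2 fold change with IL-21 above 0 in Ly6Clo and 6 in Ly6Chi. The median log2 fold change of the 10 was 0.31 in Ly6Clo and 0.11 in Ly6Chi, against -0.01 and 0.00 over all genes tested. Within Ly6Clo the stimulated libraries were both above the unstimulated ones for Tlr2, Tlr4, Tlr7 and Myd88 and both below them for Cd14 and Irak3, so 6 of the 10 did not overlap, against 29.5% of all genes. Within Ly6Chi 0 of the 10 were free of overlap, against 31.5% of all genes. With 4 stimulated and 4 unstimulated libraries it was 0 of 10, against 3.71%. Whether these counts differ between the subsets was not tested. A change of 2-fold or more in either direction lay outside the 95% interval of 3 of the 10 in Ly6Clo and 4 in Ly6Chi, and a change of 4-fold or more lay outside that of 9 in each.

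**Figure D2:**
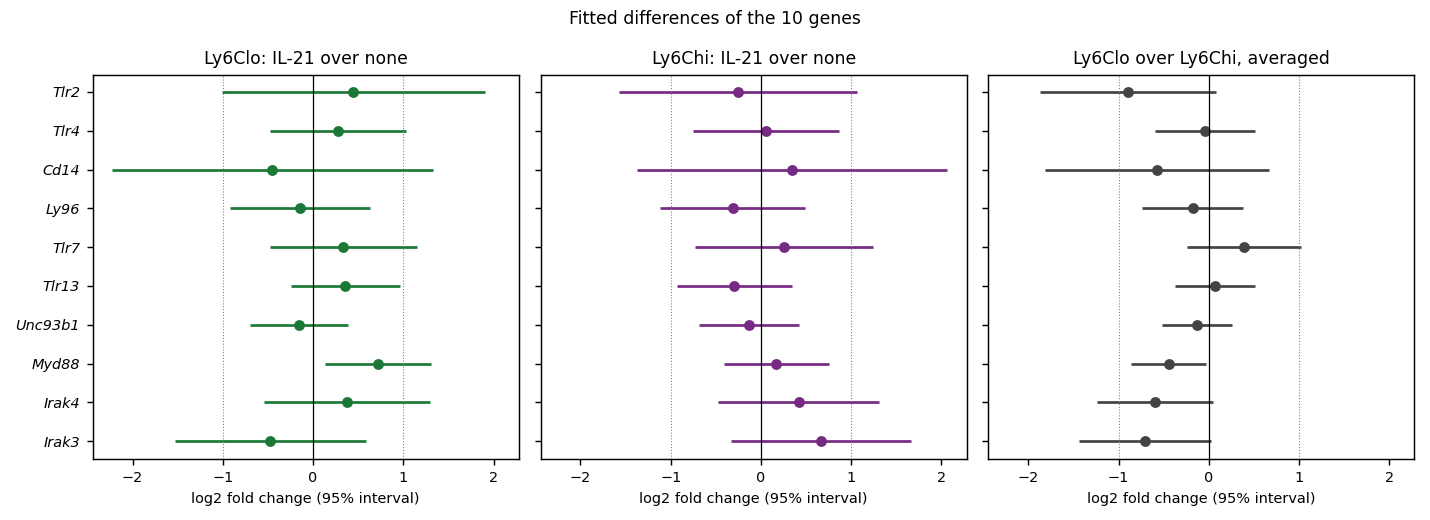
Fitted log2 fold change (points, x axis) with its 95% interval (lines) for the 10 genes (y axis), for IL-21 over no IL-21 in Ly6Clo and in Ly6Chi and for Ly6Clo over Ly6Chi averaged over stimulation; dotted lines mark 2-fold. The intervals cross 0 except that of Myd88 in Ly6Clo (0.14 to 1.31) and in the subset comparison (-0.86 to -0.03), and no gene passed after adjustment.

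The second comparison set Ly6Clo against Ly6Chi, with 4 libraries each. Of the 10 genes 8 had a fitted log2 fold change below 0, and Tlr7 and Tlr13 one above 0, with a median log2 fold change of -0.31 against 0.00 over all genes tested. Levels of the subsets overlapped for all 10, while 5.38% of all genes did not overlap. Tlr2 was at -0.89 (SE 0.46, -1.87 to 0.09), Irak3 at -0.71 (SE 0.34, -1.44 to 0.03), Irak4 at -0.60 (SE 0.30, -1.24 to 0.04) and Cd14 at -0.57 (SE 0.54, -1.81 to 0.66). Myd88 was at -0.45 (SE 0.19, -0.86 to -0.03), with an unadjusted p of 0.0368 and an adjusted p of 0.564 by edgeR's test. The other genes were closer to 0, with Tlr7 at 0.39 (SE 0.30), Ly96 at -0.18 (SE 0.26), Unc93b1 at -0.13 (SE 0.18), Tlr13 at 0.07 (SE 0.21) and Tlr4 at -0.04 (SE 0.26). Adjusted p values of the 10 were 0.564 to 0.984 by edgeR's test.

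At each stimulation a single gene of the 10 had an unadjusted p under 0.05. With IL-21 it was Irak3, at -1.28 for Ly6Clo against Ly6Chi (SE 0.48, -2.30 to -0.25; edgeR unadjusted p 0.0182, adjusted p 0.913). Without IL-21 it was Myd88, at -0.72 (SE 0.28, -1.32 to -0.12; edgeR unadjusted p 0.0215, adjusted p 0.995). The Ly6Chi monocyte markers also differed between the subsets, as given above. The neutrophil list, mostly Mmp8, was lower in Ly6Clo, at 1239 and 828 CPM against 2338 and 1693 CPM with IL-21. Without IL-21 it was at 1262 and 641 CPM against 2140 and 1400 CPM. The fibroblast list was lower in Ly6Clo without IL-21 (20.8 and 32.9 CPM against 69.7 and 160.2 CPM). With IL-21 it was higher there (112 and 135.5 CPM against 15.1 and 74.5 CPM). The part of these markers in the values of Irak3 and Myd88 was not tested.

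Ordered by group mean, 26 of the 30 neighbouring pairs of groups within a gene had overlapping libraries. Overlap of neighbouring groups was not counted over all genes, so this count is no result about the members. Of the 4 pairs that did not overlap, Ly6Clo without IL-21 was below Ly6Clo with IL-21 for Tlr2 and below Ly6Chi without IL-21 for Myd88. For Cd14 and Irak3 it was Ly6Clo with IL-21 that was below Ly6Clo without it. Tlr4, Tlr7, Tlr13, Ly96, Irak4 and Unc93b1 had no such step, so the order of neighbouring groups cannot be read beyond the spread of 2 libraries. Groups farther apart in the order could still differ without overlap. For Tlr4 and Tlr7, Ly6Clo with IL-21 lay above Ly6Clo without it, and for Tlr7 also above Ly6Chi without it. For Irak4, both Ly6Chi groups lay above Ly6Clo without IL-21. Means ranged for Unc93b1 from 270.5 ± 58.4 CPM in Ly6Clo with IL-21 to 325 ± 27.8 CPM in Ly6Chi without it (SD, n = 2 each), and for Myd88 from 114 ± 37.7 CPM in Ly6Clo without IL-21 to 219.5 ± 33.6 CPM in Ly6Chi with it (SD, n = 2 each).

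For several of the 10 genes the larger gap was between libraries 1 and 2 of the same group. In Ly6Chi, library 1 exceeded library 2 for Cd14 5.50-fold with IL-21 and 4.73-fold without it, and for Tlr2 2.84-fold and 3.23-fold. The counts behind Cd14 were 29 and 4 with IL-21 and 22 and 5 without it. Exact 95% Poisson intervals, which cover counting error only, were 73.1 to 157 CPM for library 1 and 5.41 to 50.8 CPM for library 2 with IL-21, and 56.5 to 137 and 6.19 to 44.5 CPM without it. The Cd14 intervals of libraries 1 and 2 do not meet. For Tlr2 they do, at 31.6 to 93.1 CPM for library 1 and 5.41 to 50.8 CPM for library 2 with IL-21, and 43.7 to 117 and 8.40 to 49.8 CPM without it. In Ly6Clo library 2 of Cd14 was 1.41-fold library 1 with IL-21 and 0.925-fold without it.

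**Figure D3:**
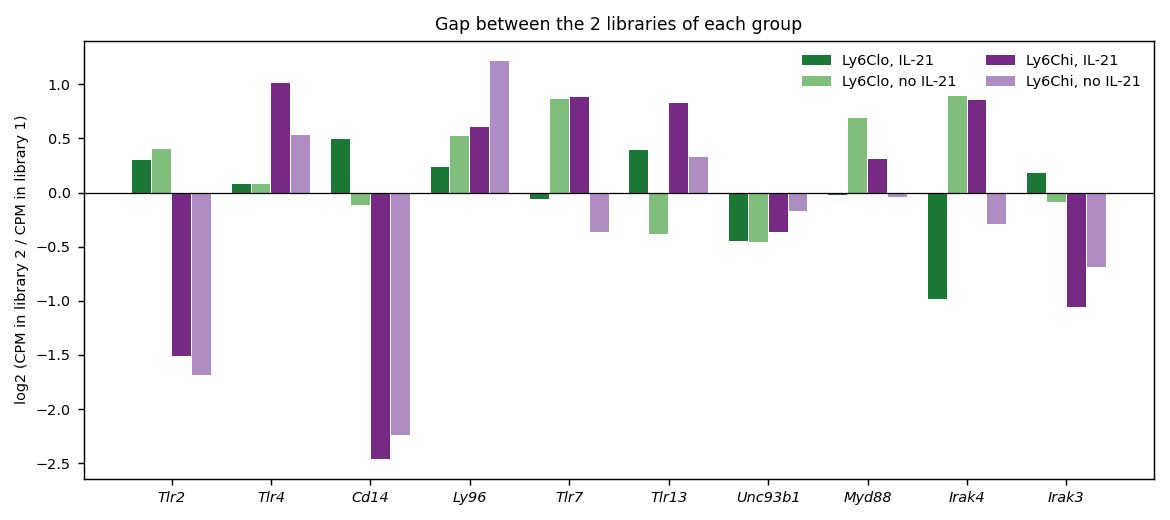
Log2 ratio of the CPM in library 2 to that in library 1 (y axis) of each group (bar colours) for the 10 genes (x axis). Bars point down in both Ly6Chi groups for Cd14 (-2.46 and -2.24) and Tlr2 (-1.51 and -1.69), up in all 4 groups for Ly96 and down in all 4 for Unc93b1.

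Because of that gap, the subset difference of Cd14 had opposite signs between the numbers. With IL-21 the log2 ratio of Ly6Clo to Ly6Chi was -1.96 in number 1 and 0.99 in number 2, and without IL-21 it was -0.86 and 1.27. The sign was the same in both numbers for 3 of the 10 genes with IL-21 and 3 without it. For the IL-21 effect it was the same for 7 of the 10 in Ly6Clo and 5 in Ly6Chi. Agreement of sign was not counted over all genes, so these counts are no result about the 10. In an edgeR fit with a term for the number, added to the groups, 8.2% of the 5256 genes differed between the numbers and 1 of the 10 genes did. That gene was Ly96, higher in libraries numbered 2 by 0.64 on the log2 scale (SE 0.18, edgeR adjusted p 0.0276, higher in 4 of 4 groups). Cd14 (-0.94, SE 0.36) and Unc93b1 (-0.36, SE 0.14) did not pass, with edgeR adjusted p values of 0.126 and 0.105.

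Markers also differed with the number, in both directions, given first for Ly6Chi. Of the macrophage markers, Lyz2 was at 5934 CPM in library 1 and 2487 CPM in library 2 with IL-21, and at 6773 and 2963 CPM without it, and Csf1r and Adgre1 were likewise lower in library 2. Fcgr1 was higher there, with 572 and 1048 CPM with IL-21 and 652 and 877 CPM without it, as was Mertk. The 8 Ly6Chi monocyte markers summed to 1596 and 1137 CPM with IL-21 and 1160 and 976 CPM without it. Among these, Hp had 331 and 49.6 CPM with IL-21 and 238 and 34.3 CPM without it, and Ly6c2, Chil3 and Vcan were also lower in library 2. Plac8 went the other way, with 71.5 and 184 CPM with IL-21 and 32.8 and 149 CPM without it, as did Ccr2. The neutrophil list summed to 2338 and 1693 CPM with IL-21 and 2140 and 1400 CPM without it, and was mostly Mmp8, since Ly6g and Retnlg were at 0. The endothelial list, mostly Kdr, was higher in library 2, summing to 102 and 343 CPM with IL-21 and 139 and 259 CPM without it. So was the fibroblast list, at 15.1 and 74.5 CPM with IL-21 and 69.7 and 160.2 CPM without it. Several of these shifts were seen in Ly6Clo as well. There, Lyz2 had 4237 and 2819 CPM with IL-21 and 4650 and 3446 CPM without it. Fcgr1 had 508 and 895 CPM with IL-21 and 502 and 709 CPM without it. The neutrophil list summed to 1239 and 828 CPM with IL-21 and 1262 and 641 CPM without it. The endothelial and fibroblast lists were again higher in library 2. Ly6c2, Vcan and Ccr2 shifted the other way in Ly6Clo than in Ly6Chi. The part of these markers in the levels of Cd14 and Tlr2 was not tested.

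The rest of the pathway was followed through 83 further genes in 6 lists, of which 80 had at least 1 count and 49 could be tested. In the fit without a term for the number, none of the 49 passed edgeR's test in any of the 7 comparisons, in either direction. At an unadjusted p under 0.05, edgeR had 3 of the 49 for IL-21 in Ly6Clo (6.12%, against 3.52% of all genes). It had 2 in Ly6Chi (4.08% against 3.52%) and 2 averaged (4.08% against 5.33%). For Ly6Clo against Ly6Chi it had 6 with IL-21 (12.2% against 5.27%) and 4 without it (8.16% against 4.53%). Averaged over stimulation it had 8 (16.3% against 7.78%). For the difference of the IL-21 effects it had 0, against 1.75% of all genes. Among the outputs, Ccl5 was far higher in library 2 than in library 1 of each group. It had 220 and 1809 CPM in Ly6Clo with IL-21 and 299 and 2032 CPM without it. In Ly6Chi it had 181 and 1261 CPM with IL-21 and 148 and 1289 CPM without it. With a term for the number, Ccl5, Cxcl2, Nfkbia and Cd36 passed edgeR's test in the averaged subset comparison. Adjusted p values of the latter 3 are given in the last section. DESeq2, without that term, called 1 gene of the lists, Cxcl2, in the averaged subset comparison and 0 in the others, again with no share over all genes given. The median log2 fold change with IL-21, averaged over the subsets, was -0.02 over the 49 genes and that of Ly6Clo against Ly6Chi was -0.09.

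Of the 9 other receptors, Tlr1, Tlr3, Tlr6 and Cd180 could be tested. Tlr1 and Tlr6, partners of Tlr2, had 7 to 29 and 4 to 14 counts, Tlr3, the receptor of double-stranded RNA, had 6 to 22, and Cd180, a receptor related to Tlr4, had 57 to 179. With IL-21 the averaged log2 fold changes were 0.22 (SE 0.31) for Tlr1, 0.29 (SE 0.45) for Tlr6, 0.02 (SE 0.31) for Tlr3 and -0.26 (SE 0.20) for Cd180. For Ly6Clo against Ly6Chi they were -0.55 (SE 0.31), -0.54 (SE 0.45), 0.49 (SE 0.31) and 0.13 (SE 0.20) in that order of genes. Tlr8, another sensor of RNA, had 2 to 11 counts. Tlr9, the receptor of DNA with unmethylated CpG, Tlr5, that of flagellin, and Tlr11 had at most 1 count in a library, and Tlr12 had 0 in all 8, which allows up to 6.58 to 14.9 CPM in a library. At this depth their levels cannot be compared.

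In the list of accessory proteins and adaptors, 4 of the 8 tested genes had an averaged log2 fold change with IL-21 above 0. The smallest p belonged to Slc15a4, an endosomal transporter that TLR7 signalling needs (-0.35, SE 0.23), and Ly86, which encodes MD-1, the partner of CD180 (0.39, SE 0.27). Of the 12 kinases and ubiquitin ligases 3 were above 0, and Traf3 (-0.71, SE 0.34) and Irak2, a kinase downstream of MyD88 (-0.62, SE 0.33), came first. Of the 8 inhibitors 6 were above 0, led by Zfp36, which promotes decay of inflammatory messengers (0.42, SE 0.17), and Nfkbia, the inhibitor of NF-kappaB that NF-kappaB itself induces (0.43, SE 0.18). Their edgeR adjusted p values were both 0.833. Of the 10 transcription factors 4 were above 0, with Rel at -0.62 (SE 0.31) and Irf8 at 0.27 (SE 0.19). Of the 7 induced outputs that could be tested 3 were above 0, with Ccl4 at 0.50 (SE 0.29) and Il1b at -1.11 (SE 0.86). Tnf had 2 to 13 counts in a library and Il6 had 0 in all 8.

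**Figure D4:**
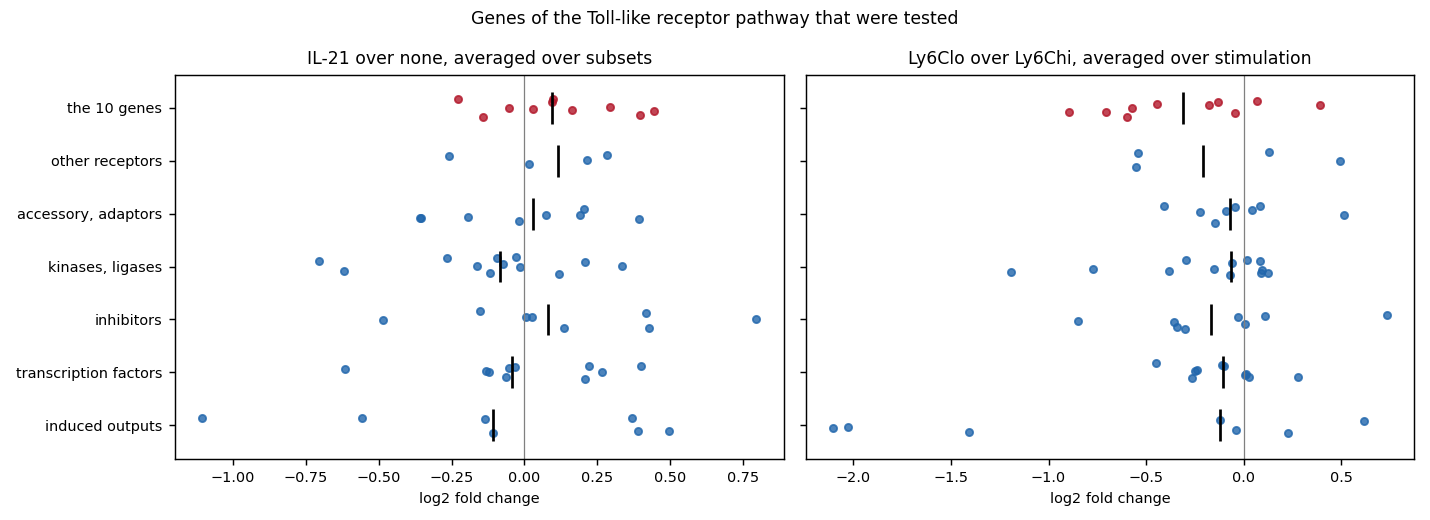
Log2 fold change (x axis) of the 10 genes and of each tested gene of the pathway lists (points) by list (y axis), with a bar at the list's median, for IL-21 over no IL-21 averaged over subsets and for Ly6Clo over Ly6Chi averaged over stimulation. The points lie on both sides of 0 in every list, and Cxcl2 (-2.10) and Il1b (-2.03) lie farthest out in the subset comparison.

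Between the subsets the pathway genes with the smallest p lay in the outputs and the inhibitors. Cxcl2, a chemokine that draws neutrophils, had 28.0 to 66.5 CPM in the 4 Ly6Clo libraries and 87.7 to 279 CPM in the 4 Ly6Chi libraries, which did not overlap. Its log2 fold change was -2.10 (SE 0.37, -2.91 to -1.30), and missed the threshold in the fit without a term for the number (edgeR adjusted p 0.0614). DESeq2 gave -2.16 (SE 0.42) and an adjusted p of 0.000390, and edgeR's adjusted p was 0.00142 without Ly6Chi library 2 without IL-21 and 0.0490 without Ly6Clo library 2 with IL-21. Nfkbia had 515 to 934 CPM in Ly6Clo and 999 to 1755 CPM in Ly6Chi, again without overlap (-0.85, SE 0.18, edgeR adjusted p 0.103, and 0.0482 without Ly6Clo library 2 without IL-21). Without the filter on low counts, edgeR's test called both Cxcl2 (adjusted p 3.98e-13) and Nfkbia (0.000227). In that setting the genes too low for the filter also enter the shared estimate of the spread. Those p values are therefore not comparable with the filtered ones and are no measure of strength. Cd36, a scavenger receptor that can assist TLR2, had 1368 to 1868 CPM in Ly6Clo and 855 to 1358 CPM in Ly6Chi, also without overlap (0.52, SE 0.17, edgeR adjusted p 0.452). With a term for the number in the fit, edgeR's test called Cxcl2, Nfkbia and Cd36, with values in the last section. The labels do not say that the numbers mark pairs. Il1b was at -2.03 (SE 0.84), Ikbke, a kinase related to TBK1, at -1.19 (SE 0.46), Traf3 at -0.77 (SE 0.34), Tollip, an inhibitor of IRAK1, at 0.73 (SE 0.31) and Slc15a3, an endosomal transporter, at -0.41 (SE 0.17). Jun (-0.25, SE 0.23) and Irf5 (-0.24, SE 0.21) had the smallest p among the transcription factors. The Ly6Chi monocyte markers and the neutrophil list given above were lower in the same Ly6Clo libraries, and their part in these values was not tested.

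Genes with a pattern like that of each member over the 8 libraries were listed by Pearson's r of log2(CPM + 1), as a description of libraries that share depth and replicate number. They included Ifngr1 for Tlr2, Nmt1 and Nelfcd for Tlr4, Csnk1g2 and Fam102b for Cd14 and Phc2 and Pnpt1 for Ly96. For Tlr7 they were Aimp1 and Map2k4, for Tlr13 Ppp2r5e and Snx3, and for Unc93b1 Cd24a and Slc38a1. For Myd88 they were Zyx and Mfsd7a, for Irak4 Hexim1 and Bri3 and for Irak3 Ikzf1 and Nus1. The r of the pairs named ran from 0.899 to 0.974. Being the highest of 5256 genes over 8 libraries with low counts, they are values to rank by and not a result.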

How the data were processed

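Each library's deposited table gives 1 expected count per Ensembl gene. Fractions were common: in the 8 tables, 53.3 to 59.7% of the values above 0 lay more than 0.001 from an integer. Per the labels' protocols, libraries were made with a QuantSeq FWD 3' kit with a module for unique molecular identifiers and read as single ends. Both mm10, as genome build, and DESeq2 appear without versions, per the submitters' processing notes. Not given in the sources used here are the aligner, counter and annotation, and how identifiers or strand entered the counting.

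Symbols and coordinates are from GENCODE M21 (GRCm38), which matched 53237 of 53342 identifiers. The deposited expected counts were rounded, as planned. Genes were kept by filterByExpr (minimum count 10, minimum total 15), which left 5256. Counts were normalised by TMM and fitted in edgeR 4.0.16 (limma 3.58.1, R 4.3.3) with 4 group means over all 8 libraries. For each contrast edgeR's quasi-likelihood F test, in its robust form, was used and p was adjusted by Benjamini-Hochberg over all genes tested, with calls at an adjusted p under 0.05. The SE is the log2 fold change divided by the square root of F, and the 95% interval uses the test's degrees of freedom. The fit was tested on simulated counts.

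The members and the lists were chosen with earlier results of these data known. All 10 members are named, every gene of the receptor list, any list gene called, and up to 2 per list with the smallest p in either averaged comparison. Alternatives were a replicate block, other size factors, no filter, unrounded values, DESeq2 1.42.0 and leaving out each library. Of the 50-base words in the last 400 bases of the members' transcripts, 1 of 1250 for Tlr4 and none for the other 9 occurred in another gene's transcripts. Some marker genes and a gene of like pattern are not reported individually here.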

Additional observations from a re-analysis of the deposited data

How the results depend on the processing

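In no alternative did any of the 10 genes pass in any of the 7 comparisons. Over 350 values (70 fold changes under 5 alternatives) 348 kept their direction, and the lowest adjusted p was 0.182 (Myd88 in the averaged subset comparison with the replicate block). Over 560 values with 1 library left out, 493 kept it and the lowest adjusted p was 0.316. With TMM and with DESeq2-style size factors, the median log2 fold change of all genes lay between -0.01 and 0.01 to 2 decimals in each comparison.

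The replicate block changed no call of the 10 genes. Same-numbered libraries deviated together (Pearson r 0.325 to 0.562 over 2924 genes), but with 2 numbers per group this does not show pairs. Over all genes, the block gave 29 calls in place of 7 for IL-21 in Ly6Clo, 14 in place of 1 in Ly6Chi, 60 in place of 9 averaged and 1 in place of 0 for their difference. For Ly6Clo against Ly6Chi it gave 41 in place of 1 with IL-21, 31 in place of 2 without it and 132 in place of 10 averaged, the last with Ccl5, Cxcl2 (edgeR adjusted p 0.00948), Nfkbia (0.000677) and Cd36 (0.0223) among them. Without the filter on low counts these 7 numbers were 16, 8, 35, 1, 22, 16 and 58. Cxcl2 (edgeR adjusted p 3.98e-13) and Nfkbia (0.000227) then passed in the averaged subset comparison. Genes too low for the filter enter the shared estimate of the spread in that setting, so its p values are not comparable with the filtered ones. Unrounded values gave 3 calls in place of 7 for IL-21 in Ly6Clo.

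With each library left out in turn, the following log2 fold changes of the 10 genes and the pathway genes named crossed 0 in 4 of the comparisons; the other 3 enter only the counts above. For IL-21 in Ly6Chi, Cd14 ranged from -1.41 to 1.84, Tlr2 from -1.25 to 0.80, Tlr4 from -0.50 to 0.52, Ly96 from -0.77 to 0.43, Tlr7 from -0.21 to 0.68, Tlr13 from -0.75 to 0.084, Unc93b1 from -0.32 to 0.026 and Irak4 from -0.045 to 0.82. For IL-21 in Ly6Clo, Ly96 ranged from -0.34 to 0.18, Unc93b1 from -0.38 to 0.083 and Irak4 from -0.14 to 0.97. For Ly6Clo against Ly6Chi averaged, Cd14 ranged from -0.95 to 0.31, Ly96 from -0.41 to 0.19, Tlr4 from -0.27 to 0.23, Tlr13 from -0.11 to 0.29, Cd180 from -0.026 to 0.31 and Jun from -0.44 to 0.045. For IL-21 averaged, Cd14 ranged from -0.93 to 0.69, Tlr2 from -0.40 to 0.63, Tlr4 from -0.11 to 0.40, Ly96 from -0.45 to 0.15, Tlr13 from -0.20 to 0.22, Irak3 from -0.23 to 0.29, Tlr1 from -0.046 to 0.45 and Tlr3 from -0.16 to 0.28. A lone library left in a group was assumed to vary like the other groups, and the cause of these shifts was not tested. For IL-21 within each subset, the intervals of Cd14 and Tlr2, at 4 to 29 counts a library, do not exclude a 2-fold difference in either direction.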
